A study of Homo sapiens with 90 samples.

Results

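Transcript levels in BxPC-3 cells 1 h after the addition of cetuximab were compared with those in negative control cells at the same time, on 3 arrays per arm, or 6 of the 90 arrays of a time course with 30 groups of 3. BxPC-3 is an established line of human pancreatic ductal adenocarcinoma cells, grown here at low serum and starved of serum before time 0, in both arms alike. Cetuximab, a monoclonal antibody against the epidermal growth factor receptor EGFR, was present at 10 µg/ml from time 0, and the labels do not say what the negative controls received. All 12735 genes with a probe above a filter on dim probes were tested, and each value is a log2 level from 1 BeadChip. The model is 1 cell line in culture, and nothing in the labels ties the replicates to cultures of their own. SEs and p-values therefore measure only the spread between arrays of a group, which may be technical. Unless stated otherwise, that spread was pooled over all 30 groups and 90 arrays, not taken from the 6 arrays of 1 h. In bulk RNA fewer cells of a kind and less RNA per cell cannot be told apart.

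EGFR passes its signal mainly along RAS, RAF and ERK and along PI3K and AKT. ERK drives the transcription of immediate early genes (FOS, EGR1, the JUN family) and of feedback inhibitors (DUSP6, the SPRY genes), and AKT keeps FOXO transcription factors out of the nucleus, so that FOXO targets such as FBXO32 and TNFSF10 are known to be restrained while the pathway is active. Cetuximab keeps ligands from the receptor, which lowers the activity of both branches in cells that depend on them.

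The start regions of 4 genes described below are shown because they hold a motif of a factor of these pathways or a TATA box. The sequences are those of RefSeq on GRCh38.p14, run from 250 bases before to 50 after the start of the gene, and are written 5′ to 3′ on the strand of the gene, with motif matches in capitals and positions counted from 0 at the start. TNFSF10 (chr3:172523381-172523680, minus strand) holds TATAAA at -31 from the start, HBP1 (chr7:107168753-107169052, plus strand) the FOXO motif TGTTTAC on the opposite strand at -173, JUND (chr19:18281573-18281872, minus strand) the cyclic AMP response element TGACGTCA at -200, and IL1A (chr2:112784444-112784743, minus strand) the AP-1 motif TGACTCA at -12 and, on the opposite strand, at 38, with TATAAA at -239.
TNFSF10: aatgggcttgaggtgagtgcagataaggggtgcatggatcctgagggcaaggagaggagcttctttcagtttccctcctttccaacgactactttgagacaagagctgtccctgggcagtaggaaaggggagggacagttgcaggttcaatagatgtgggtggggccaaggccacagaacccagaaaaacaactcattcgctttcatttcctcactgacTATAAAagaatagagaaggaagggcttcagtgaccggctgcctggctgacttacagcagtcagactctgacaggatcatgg
HBP1: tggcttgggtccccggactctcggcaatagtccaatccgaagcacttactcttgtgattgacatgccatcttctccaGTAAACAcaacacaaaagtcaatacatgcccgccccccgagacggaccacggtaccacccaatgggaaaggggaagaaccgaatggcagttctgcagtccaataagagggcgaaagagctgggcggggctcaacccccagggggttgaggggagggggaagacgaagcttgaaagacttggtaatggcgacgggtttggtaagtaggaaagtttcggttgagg
JUND: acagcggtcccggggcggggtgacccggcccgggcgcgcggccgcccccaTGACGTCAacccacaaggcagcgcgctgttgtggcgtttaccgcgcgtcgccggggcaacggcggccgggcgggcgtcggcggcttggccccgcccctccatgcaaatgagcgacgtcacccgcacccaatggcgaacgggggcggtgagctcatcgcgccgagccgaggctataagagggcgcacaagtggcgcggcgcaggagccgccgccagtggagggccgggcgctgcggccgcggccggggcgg
IL1A: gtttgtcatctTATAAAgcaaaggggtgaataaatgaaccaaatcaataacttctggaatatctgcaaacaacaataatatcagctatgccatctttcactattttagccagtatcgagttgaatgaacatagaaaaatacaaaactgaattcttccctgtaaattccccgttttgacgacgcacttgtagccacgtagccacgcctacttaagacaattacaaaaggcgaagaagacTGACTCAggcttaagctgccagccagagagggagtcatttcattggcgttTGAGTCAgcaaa

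Of the 39 genes that differed between the arms, 29 had a start region in the table, 22 of those higher and 7 of those lower with cetuximab. On either strand, TGACTCA was in 0 of the 22 and in 1 of the 7 (IL1A), against 4.95% of all 35116 regions of this length. TGACGTCA was in 2 of the 22 (GABARAPL1 and JUND) and in 1 of the 7 (CSTF3), against 1.85%, and TGTTTAC in 1 of the 22 (HBP1) and 1 of the 7 (BDNF), against 3.42%. The EGR motif GCGTGGG was in none of these 29 regions, against 6.98%. The CArG box of serum response factor was in 2 of the 22 (H2BC21 and FAM53C) and 0 of the 7, against 1.29%, and TATAAA in 2 of the 22 (TNFSF10 and H2BC21) and 1 of the 7 (IL1A), against 11.5%. AP-1 and the cyclic AMP response element share no match, since their letters differ, and a match is a description of the letters only.

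The 6 arrays were alike in depth of signal, with medians from 4.287 to 4.292 and a Pearson's r across probes of 0.987 to 0.989 between them. All 8 markers of pancreatic ductal epithelium passed the filter on dim probes, from CLDN4 at 4.53 to 4.99 up to KRT19 at 11.70 to 12.00, and SMAD4 and CDKN2A, which BxPC-3 is known to have lost, did not pass (3.45 to 4.27). The filter is only the median of the probe means, and 5 of 7 fibroblast markers, 1 of 6 acinar, 1 of 4 endothelial and 4 of 6 leukocyte markers passed it too. Fibroblast markers stayed at or below 4.74, acinar and endothelial markers at or below 4.73 and 4.48, MS4A1 at or below 4.44, and the leukocyte markers PTPRC and CD3E did not pass. CD68, a lysosomal protein also made by epithelial lines, stood at 8.02 to 8.31, and CD14 and LYZ at 4.92 to 5.72. 1 array stood apart in genes of metal and oxidative stress. MT1X, a metallothionein that binds zinc, read 10.96 on control replicate 1 against 8.60 and 8.32 on control replicates 2 and 3 and 8.58, 8.74 and 8.67 with cetuximab, and all 7 metallothioneins measured were highest on that array. Of 15 genes of oxidative stress and metallothioneins, all were below 0 in the comparison with a median of -0.25, 11 were highest on control replicate 1, and the median was -0.015 without it.

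At 1 h 39 genes differed between the arms, or 0.306% of those tested (limma, adjusted p under 0.05), with 26 higher (0.204%) and 13 lower (0.102%) with cetuximab. The differences were small, from 0.29 to 0.75 in size, or 1.22-fold to 1.68-fold, with a median of 0.43 against 0.090 over all genes, and the median difference of all genes was 0.0029. At an unadjusted p under 0.05 there were 1255 genes, 653 higher and 602 lower. The 3 arrays of one arm did not overlap those of the other in 37 of the 39, against 16% of all genes. Since the calls were made on these same values, nothing further is read from it, here or where it is given for single genes below. ATF3 had the largest difference of all genes tested. Size alone did not make a call, since MIGA1 at -0.68, MCMDC2 at -0.66 and MT1X at -0.63 did not pass.

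**Figure D1:**
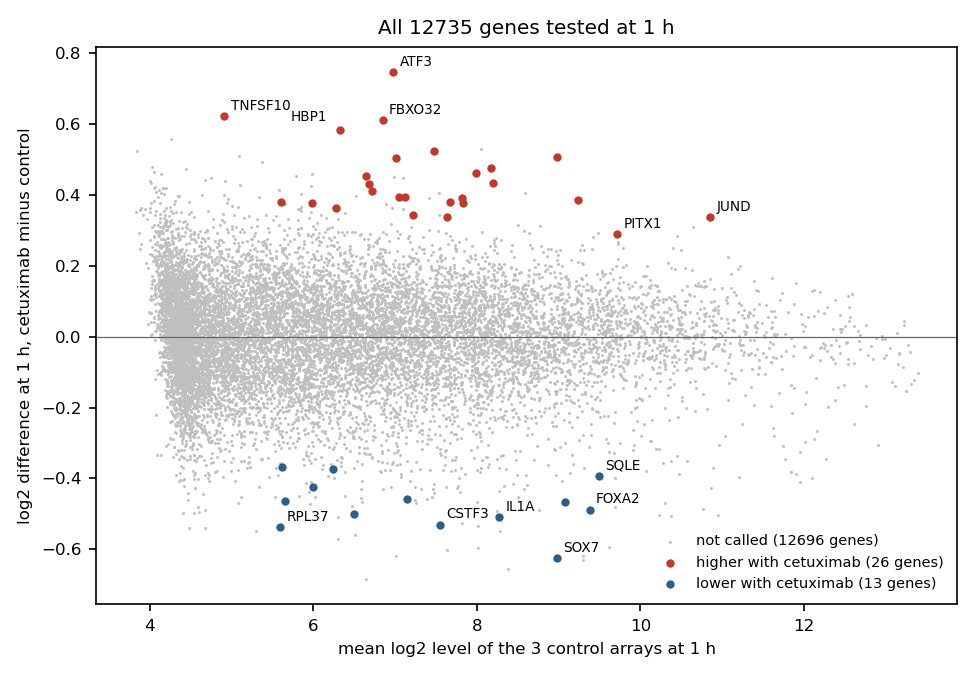
Mean log2 level of the 3 control arrays at 1 h (horizontal) against the log2 difference between cetuximab and control (vertical) for the 12735 genes tested, with the 26 genes higher and the 13 genes lower with cetuximab in colour. The called genes lie at levels from 4.91 (TNFSF10) to 10.86 (JUND) and differences from -0.63 (SOX7) to 0.75 (ATF3).

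The calls rest on few arrays, and for a single gene an exact permutation test of 3 against 3 cannot go below p = 0.1. With the spread taken from the 6 arrays of 1 h alone, 0 genes passed (limma, 1257 at an unadjusted p under 0.05). Without cetuximab replicate 1, 2 or 3 the count was 60, 6 or 0 (846 unadjusted for the last), and without control replicate 1, 2 or 3 it was 7, 34 or 25. Each of the 39 genes kept its sign in all 21 alternative settings. That is no separate support, since the genes were picked on these same arrays and several settings alter only the spread. Without control replicate 1, the array with high metallothioneins, 6 of the 39 stayed called: TNFSF10, PACSIN2, SOX7, HIPK2, CSTF3 and RPL37. Cetuximab replicate 1 was the lowest of its arm in 20 of the 26 genes that were higher and the highest of its arm in 10 of the 13 that were lower, so that it lay nearest to the controls.

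**Figure D2:**
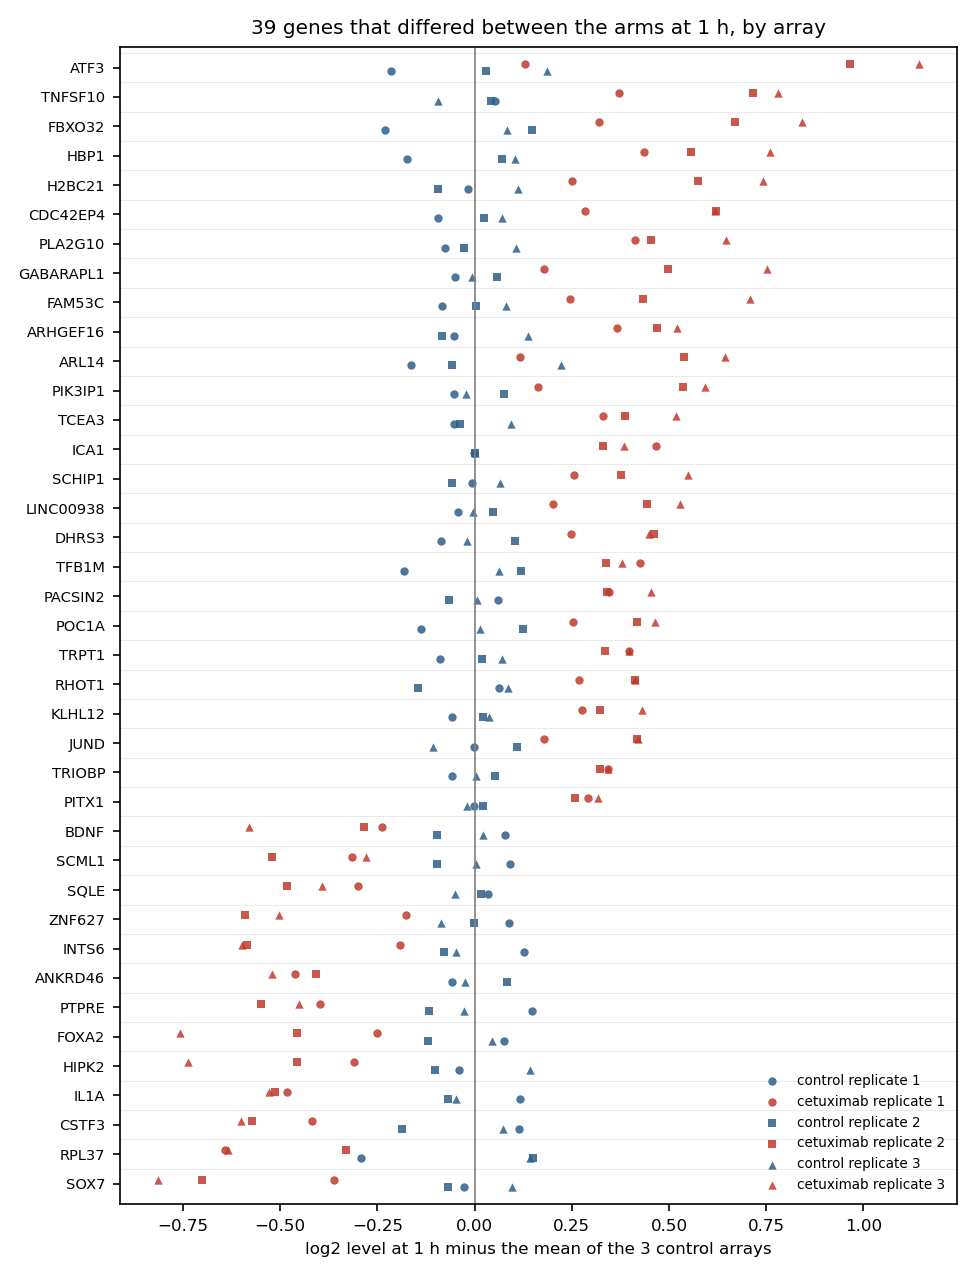
Log2 level at 1 h of each of the 39 genes on each of the 6 arrays, as the distance from the mean of the 3 control arrays, with the arm as colour and the replicate number as symbol. The arms overlap in 2 genes, ATF3 and ARL14, and cetuximab replicate 1 (circles) lies nearest to the controls in most genes.

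The genes that were higher with cetuximab included 4 transcription factors, with ATF3 the largest of the 26 differences and JUND and PITX1 among the smallest. Values below are given for replicates 1, 2 and 3 in turn. ATF3, a factor of the AP-1 and CREB families induced by stress, read 7.11, 7.94 and 8.12 with cetuximab and 6.76, 7.00 and 7.16 in controls. The difference was 0.75 ± 0.16 (SE, adjusted p = 0.0174), with replicate 1 of the cetuximab arm just below the highest control. The SD of ATF3 at 1 h was 0.54 with cetuximab and 0.20 in controls, and the SE here and below is from the pooled fit. Other probes of ATF3, below the filter, gave -0.18 and -0.18. HBP1, a repressor of cell cycle genes, read 6.76, 6.88 and 7.09 against 6.15, 6.40 and 6.43, a difference of 0.58 ± 0.12 (adjusted p = 0.0101), and a second probe of HBP1 gave 0.59. In this gene the arms were apart on all arrays. JUND, the AP-1 member linked to growth arrest, stood at 11.03, 11.27 and 11.28 against 10.85, 10.97 and 10.75, which is 0.34 ± 0.072 (adjusted p = 0.0129). PITX1, a homeobox factor with close replicates, read 10.01, 9.98 and 10.03 against 9.72, 9.74 and 9.70 and had the smallest difference called, 0.29 ± 0.069 (adjusted p = 0.0276).

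FOXO targets and brakes on PI3K formed a second group. TNFSF10, the death ligand TRAIL, read 5.28, 5.63 and 5.69 with cetuximab and 4.96, 4.95 and 4.82 in controls, a difference of 0.62 ± 0.12 (adjusted p = 0.00483). FBXO32, the substrate receptor of a ubiquitin ligase also called atrogin-1, read 7.17, 7.52 and 7.69 against 6.62, 7.00 and 6.93 (0.61 ± 0.11, adjusted p = 0.00483), and a second probe above the filter gave 0.35. PIK3IP1, a membrane protein that inhibits PI3K, read 6.85, 7.22 and 7.28 against 6.63, 6.76 and 6.66 (0.43 ± 0.091, adjusted p = 0.0102). All 3 genes were higher on each cetuximab array than on any control. These were the 3 called of 27 measured members of a list of FOXO targets and PI3K feedback genes, against 0.306% of all genes. With an unadjusted p under 0.05 (limma) 6 of the 27 were higher and 2 lower, against 653 and 602 of all 12735 genes. Of the 27, 18 lay above 0 (50.9% of all genes did). The median of the list was 0.076, against 0.058 at time 0, -0.046 at 30 min and 0.058 at 2 h. Of the members that did not pass, CITED2 (0.33), CAT (0.30) and BCL2L11, the BH3-only protein BIM (0.30, adjusted p = 0.376), had an unadjusted p under 0.05 above 0, and IRS1 (-0.19) and FOXO3 (-0.21) below it. GABARAPL1, an ATG8 protein of autophagosomes outside that list, stood at 8.35, 8.67 and 8.93 against 8.13, 8.23 and 8.17, a difference of 0.48 ± 0.11 (adjusted p = 0.0208).

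A further 7 genes are given together for their known roles at actin, small GTPases or membranes, a grouping made after the calls were seen. CDC42EP4, an effector of CDC42, read 9.26, 9.59 and 9.59 with cetuximab and 8.88, 9.00 and 9.05 in controls, a difference of 0.51 ± 0.10 (adjusted p = 0.00483). ARHGEF16, a guanine nucleotide exchange factor, was higher by 0.45, the ARF-like GTPase ARL14 by 0.43, SCHIP1, a partner of the NF2 product, by 0.39, PACSIN2, which bends membranes at endocytosis, by 0.38, the mitochondrial GTPase RHOT1 by 0.36 and the actin bundler TRIOBP by 0.34. Only ARL14 of these overlapped between the arms, at 8.31 on cetuximab replicate 1 and 8.42 on control replicate 3. PACSIN2 has a second probe at 0.069 and TRIOBP 3 further probes at 0.054 to 0.20, all above 0 but smaller. RHOT1 has 2 further probes above the filter at 0.17 and -0.070, and stood at 0.15 (adjusted p = 0.488) for the mean of its probes.

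The remaining 11 were mixed in role. H2BC21, a histone H2B gene, read 7.73, 8.05 and 8.22 with cetuximab and 7.46, 7.38 and 7.59 in controls, a difference of 0.52 ± 0.11 (adjusted p = 0.00605). PLA2G10, a secreted phospholipase A2, read 7.42, 7.46 and 7.65 against 6.93, 6.98 and 7.11, a difference of 0.50 ± 0.11 (adjusted p = 0.0186). In both the arms did not overlap. FAM53C was higher by 0.46, the transcript elongation factor TCEA3 by 0.41, the islet autoantigen ICA1 by 0.39, the noncoding RNA LINC00938 by 0.39 and DHRS3, which reduces retinal to retinol, by 0.39. Enzymes and adaptors with differences of 0.34 to 0.38 were TFB1M, the dimethyltransferase of mitochondrial ribosomal RNA, TRPT1, a phosphotransferase of transfer RNA splicing, the centriole protein POC1A and KLHL12, an adaptor of Cullin-3 ligases.

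Transcription regulators among the genes that were lower included SOX7, which had the largest difference of the 13, and FOXA2. SOX7, a SOX factor of endoderm and endothelium, read 8.62, 8.28 and 8.16 with cetuximab and 8.95, 8.91 and 9.07 in controls, a difference of -0.63 ± 0.12 (adjusted p = 0.00483), and its second probe gave -0.51. FOXA2, a pioneer factor of foregut and pancreas, read 9.13, 8.92 and 8.62 against 9.45, 9.26 and 9.42 (-0.49 ± 0.11, adjusted p = 0.0186). Other probes of FOXA2, below the filter, gave 0.12 and 0.097. On the probes used for SOX7 and FOXA2 the arms were apart on all arrays, with cetuximab replicate 3 lowest in each gene. ZNF627, a zinc finger protein, stood at -0.42 and SCML1, a Polycomb-like protein, at -0.37, each with 2 probes above the filter that were unequal (a second value of -0.19 for ZNF627 and 0.0075 for SCML1).

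Signalling genes among those lower with cetuximab than in controls were a kinase, a phosphatase and 2 secreted ligands. PTPRE, a receptor-type tyrosine phosphatase, read 8.68, 8.53 and 8.63 with cetuximab and 9.22, 8.96 and 9.05 in controls, a difference of -0.47 ± 0.090 (adjusted p = 0.00483), and its other 3 probes lay between -0.37 and -0.13. HIPK2, a nuclear kinase of the DNA damage response, read 6.19, 6.04 and 5.76 against 6.46, 6.40 and 6.64 (-0.50 ± 0.099, adjusted p = 0.00483), while its other 3 probes were between -0.050 and -0.0079. IL1A, the cytokine interleukin 1 alpha, read 7.79, 7.76 and 7.74 against 8.39, 8.20 and 8.22 (-0.51 ± 0.12, adjusted p = 0.0248). No cetuximab array reached a control array in these genes. BDNF, a neurotrophin, was lower by 0.37 (adjusted p = 0.0275) on the probe with the highest level while its 6 other probes gave -0.19 to 0.018.

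RNA processing, translation and sterol synthesis gave the rest. CSTF3, a subunit of the cleavage stimulation factor that acts in polyadenylation, had the smallest adjusted p of all genes, 0.00190, and read 7.14, 6.98 and 6.95 with cetuximab and 7.67, 7.37 and 7.63 in controls, a difference of -0.53 ± 0.090. Its other 3 probes, annotated to other RefSeq transcripts of the gene, gave 0.061, 0.19 and 0.26. The lower level was thus seen on 1 probe only, and the difference was -0.0049 (limma, adjusted p = 0.995) for the mean of the probes. INTS6, a subunit of the Integrator complex that ends transcription at small nuclear RNA genes, stood at -0.46. RPL37, a protein of the large ribosomal subunit, read 4.95, 5.26 and 4.96 against 5.30, 5.74 and 5.74 (-0.54 ± 0.12, adjusted p = 0.0178), with a second probe at -0.021 and the median of 68 ribosomal protein genes at 0.00055. SQLE, the squalene epoxidase of cholesterol synthesis, read 9.19, 9.01 and 9.10 against 9.53, 9.51 and 9.44 (-0.39 ± 0.094, adjusted p = 0.0287). ANKRD46 stood at -0.46. In all 5 genes the arms did not overlap.

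Of the 39 genes, 20 had more than 1 probe in the annotation, with 41 other probes. The sign was that of the probe used in 30 of the 41, and in 21 of the 27 above the filter. Genes just outside the threshold were CBS, the cystathionine synthase, at 0.56 ± 0.14 (adjusted p = 0.0503), the claudin CLDN23 at 0.35 ± 0.089 (adjusted p = 0.0521), and CAPRIN2 at -0.35, CMTM7 at 0.27 and ZNF280C at -0.46 (adjusted p = 0.0621 for these 3). Just inside it lay POC1A at 0.38 (adjusted p = 0.0360) and RHOT1 at 0.36 (adjusted p = 0.0315).

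The same genes were followed at the times on either side of 1 h. At 30 min, when 16 genes (0.126%) differed between the arms, only 7 of the 26 higher genes were above 0, with a median of -0.058 (46.0% of all genes were, median -0.013), and 10 of the 13 lower genes were below 0, with a median of -0.12. At 2 h, when 52 genes (0.408%) differed, 24 of the 26 were above 0 (median 0.15) and 11 of the 13 below (median -0.23), while 50.5% of all genes lay above 0. Of the 39, 2 were also called at 30 min (JUND, lower at -0.33, and TRIOBP, higher at 0.34) and 5 at 2 h. Those at 2 h were FBXO32 (0.62), PIK3IP1 (0.36), PTPRE (-0.50), HIPK2 (-0.43) and SOX7 (-0.62).

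**Figure D3:**
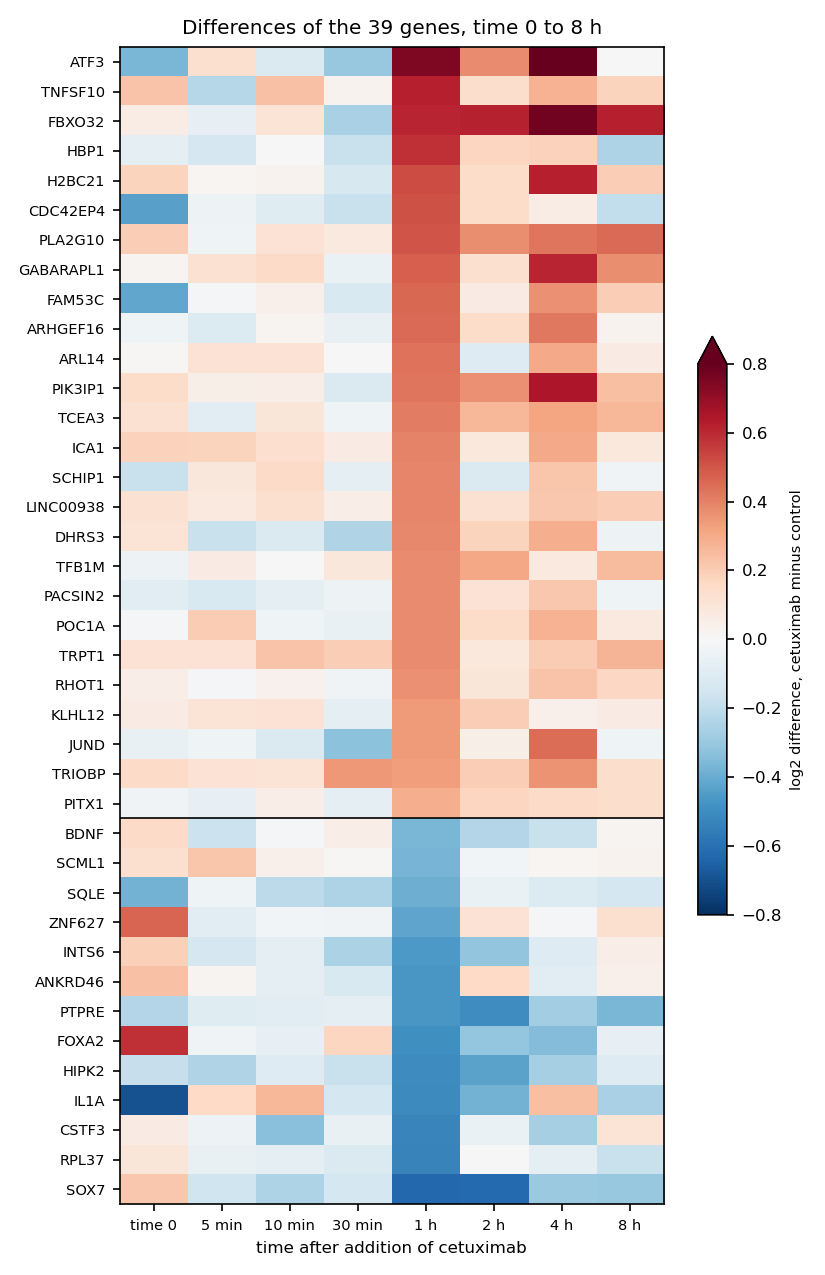
Log2 difference between cetuximab and control (colour) for the 39 genes (rows, in the order of their difference at 1 h) at 8 times from time 0 to 8 h (columns). Most rows change colour between 30 min and 1 h. Rows that keep the sign of 1 h to 8 h include FBXO32, PIK3IP1, PTPRE and SOX7. They also include GABARAPL1, H2BC21, FAM53C, LINC00938, HIPK2, FOXA2 and ICA1, some with small values at 8 h, such as FOXA2 at -0.068.

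A test of the difference between times was past the threshold for few genes. The 1 h arrays that chose the 39 genes enter each test, so passing it is no separate support for those genes. Against 30 min, the 1 h difference had moved for 8 genes (0.0628%; 951 at an unadjusted p under 0.05), all upward, and 5 of these were among the 26: ATF3 by 1.05, FBXO32 by 0.87, CDC42EP4 by 0.68, JUND by 0.67 and DHRS3 by 0.63. JUND had the smallest adjusted p there, 0.000136, having been lower with cetuximab at 30 min and higher at 1 h. The other 3 were the glucose transporter SLC2A10 (0.64), ZNF362 (0.49) and BHLHE40, a repressor of the circadian clock (0.47). Against 2 h, 4 genes (0.0314%; 547 unadjusted) had moved and none of the 39 was among them. RASD1, a Ras-like protein, stood at -0.19 at 1 h and -1.02 at 2 h, VASN, a membrane inhibitor of TGF-beta, at 0.0013 and -0.68, KLF6, a zinc finger factor of the early response, at 0.18 and -0.43, and ZNF20 at -0.27 and 0.32.

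At time 0 the arms already differed in 316 genes (2.48%), and 15 of the 26 and 4 of the 13 had the sign of 1 h, with 52.3% of all genes above 0. Of the 39, 6 were called at time 0. IL1A (-0.70) and SQLE (-0.38) were lower there as at 1 h, whereas CDC42EP4 (-0.43) and FAM53C (-0.42) were lower and FOXA2 (0.58) and ZNF627 (0.47) higher, the opposite of 1 h. The change from the difference at time 0 to that at 1 h passed the test for 133 genes (1.04%, 68 positive and 65 negative), 16 of the 39 among them. Of the 26 these were ATF3 (1.11), CDC42EP4 (0.94), FAM53C (0.88), HBP1 (0.66), SCHIP1 (0.57), PACSIN2 (0.47) and JUND (0.40). Of the 13 they were FOXA2 (-1.07), ZNF627 (-0.89), SOX7 (-0.84), ANKRD46 (-0.70), INTS6 (-0.65), RPL37 (-0.63), CSTF3 (-0.60), BDNF (-0.52) and SCML1 (-0.50). IL1A went from -0.70 to -0.51 and SQLE from -0.38 to -0.39, changes of 0.19 and -0.012 that did not pass the test. The 1 h arrays that chose the 39 genes enter this change too, so these counts are no separate support.

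ATF3 had the largest positive change since time 0 among the genes named for it and was called at 1 h, whereas the 5 others named for the size of that change were not. FOS, the AP-1 partner of JUN, read 11.34, 11.57 and 11.00 in the cetuximab arm at time 0 against 9.73, 9.87 and 9.78 in controls, and 6.31, 6.80 and 6.84 against 6.42, 6.66 and 6.62 at 1 h. Its difference went from 1.51 to 0.082, a change of -1.43 ± 0.17 (adjusted p = 2.76e-08). NFKBIZ, a nuclear regulator of NF-kB, moved by -1.27 and SPRY1, a feedback inhibitor of receptor tyrosine kinases, by -1.21, while WEE1, the mitotic inhibitor kinase, moved by 1.00 and SERTAD1, a regulator of cyclin D kinases, by 0.96. At 1 h NFKBIZ stood at -0.26, SPRY1 at -0.092, WEE1 at 0.16 and SERTAD1 at 0.13, none past the test.

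Levels within each arm showed on which side a gene had moved. In controls 20 of the 26 genes were lower at 1 h than at time 0 and 0 higher, with a median change of -0.53, against 8.98% of all genes lower. In the cetuximab arm 9 of the 26 were lower (11.4% of all genes) and 3 higher (8.46%), with a median change of -0.15. The 13 genes went the other way, with 9 higher (7.39% of all genes) and 2 lower in controls, median 0.30, and 2 higher and 7 lower with cetuximab, median -0.28. The control arrays of 1 h enter both this change and the comparison that chose the genes, so the counts describe the genes and are no separate support.

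**Figure D4:**
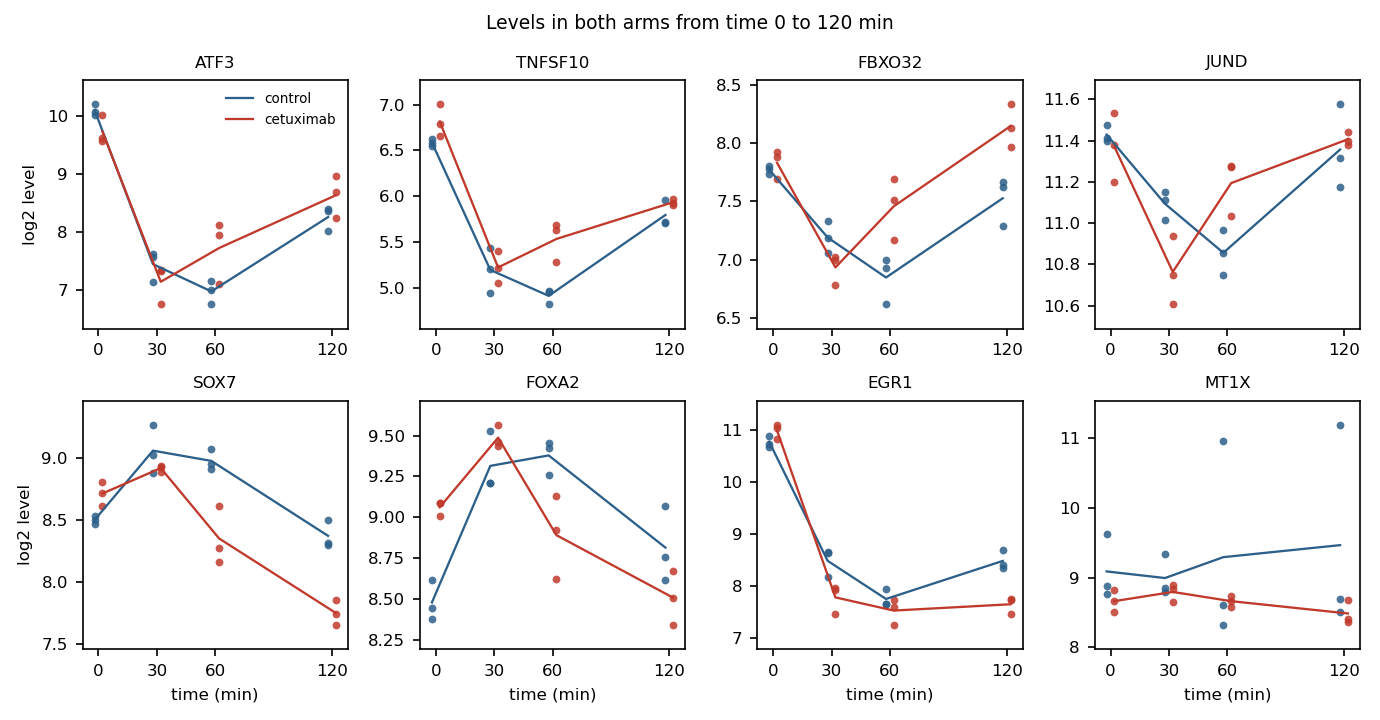
Log2 level (vertical) of 8 genes at 0, 30, 60 and 120 min (horizontal), with each array as a point and the mean of each arm as a line, for control and cetuximab. ATF3 falls from 10.09 in controls at time 0 to 6.98 at 60 min, and the high MT1X points at 60 and 120 min, 10.96 and 11.19, are control replicate 1.

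ATF3 moved furthest of the genes followed from time 0 to 2 h in this paragraph. Its mean in controls went from 10.09 at time 0 to 7.44 at 30 min, 6.98 at 1 h and 8.25 at 2 h, and in the cetuximab arm from 9.73 to 7.14, 7.72 and 8.63, so that the lowest point came at 1 h in controls and at 30 min with cetuximab. FBXO32 had its lowest points at the same times, at 7.77, 7.19, 6.85 and 7.53 in controls against 7.83, 6.93, 7.46 and 8.14. TNFSF10 went from 6.59 to 5.19, 4.91 and 5.79 in controls and from 6.82 to 5.22, 5.53 and 5.93 with cetuximab. SOX7 and FOXA2 had the mirror course, highest at 30 min to 1 h in controls (9.06 and 8.98 for SOX7, 9.31 and 9.38 for FOXA2) and already lower at 1 h in the cetuximab arm (8.92 to 8.35 for SOX7, 9.49 to 8.89 for FOXA2). MT1X differed from these in that only control replicate 1 rose, from 9.62 at time 0 and 9.34 at 30 min to 10.96 at 1 h and 11.19 at 2 h while the other arrays of both arms at these times stayed between 8.32 and 8.90.

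The receptor and the ERK pathway moved little at 1 h. EGFR read 8.38, 8.05 and 8.00 with cetuximab and 8.34, 8.16 and 8.40 in controls (-0.16 ± 0.11, adjusted p = 0.715), ERBB2 stood at 0.24 ± 0.10 (adjusted p = 0.392) and ERBB3 at 0.21 ± 0.25. Of 23 measured genes of ERK pathway output none passed (limma, with 3 at an unadjusted p under 0.05, all lower), 16 lay below 0 and the median was -0.072. Over all 12735 genes tested, 653 were higher and 602 lower at that unadjusted threshold, and 50.9% lay above 0. SPRY4, a feedback inhibitor of RAS, read 5.79, 5.56 and 5.57 against 5.96, 5.93 and 6.02, at -0.33 ± 0.12 (adjusted p = 0.270). Its arms did not overlap, as in 16% of all genes. The receptor tyrosine kinase EPHA2 stood at -0.34, smaller in size than its -0.90 at time 0. DUSP6, the ERK phosphatase, read 9.31, 9.17 and 9.32 against 9.46, 9.47 and 9.51, at -0.21 ± 0.18 (adjusted p = 0.809), and SPRY2 stood at -0.19. CCND1 (-0.071), MYC (-0.055) and IER3 (-0.091) were close to 0. Of 6 EGFR ligands measured none passed (3 unadjusted, all lower) and 5 lay below 0 with a median of -0.19, such as NRG1 at -0.35, TGFA at -0.26 and EREG at -0.21. At time 0 these 3 had stood at -0.25, -0.055 and -0.74.

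Immediate early genes were divided. Of 33 measured, ATF3 and JUND passed, 15 lay above and 18 below 0, and the median was -0.011, against -0.25, -0.21 and -0.22 at time 0, 30 min and 2 h. Among all 12735 genes 0.306% passed and 50.9% lay above 0. With an unadjusted p under 0.05 (limma) 5 of the 33 were higher and 2 lower, against 653 and 602 of all genes. KLF2, a zinc finger factor, read 7.56, 7.93 and 7.93 with cetuximab and 7.24, 7.38 and 7.62 in controls (0.39 ± 0.12, adjusted p = 0.166), and FOSB, an AP-1 member, stood at 0.29. EGR1 read 7.26, 7.74 and 7.60 against 7.66, 7.66 and 7.95 (-0.22 ± 0.14, adjusted p = 0.663), and its arms overlapped, as did those of FOS. JUN stood at -0.20 and FOSL1 at -0.0025. The differences of EGR1 at 30 min and 2 h were -0.70 and -0.83, and those of FOS -0.45 and -0.38. Before that, at time 0, EGR1 had stood at 0.22 and FOS at 1.51. Within AP-1 the values at 1 h thus ran from -0.20 (JUN) to 0.75 (ATF3), and only ATF3 and JUND of the AP-1 genes named here passed.

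Other lists held single calls. For comparison, 0.306% of all 12735 genes tested were called and 50.9% lay above 0. At an unadjusted p under 0.05 (limma) 653 of all genes were higher and 602 lower. Among 27 death receptors, ligands and BCL2 family genes TNFSF10 alone passed, the median was 0.028, and BMF, a BH3-only protein, stood at 0.45 (adjusted p = 0.212) with the receptor of TRAIL TNFRSF10A at -0.44 (adjusted p = 0.246). Among 18 NF-kB targets and cytokines IL1A alone passed, and CXCL8 (-0.45), TNFAIP3 (-0.38) and IL1B (-0.37) lay below 0 without passing. These 3 genes were further below 0 at time 0, at -0.81, -1.29 and -0.89, when the median of the list was -0.24 against -0.067 at 1 h. CXCL8, a chemokine of neutrophils, read 6.85, 6.99 and 7.16 against 7.46, 7.44 and 7.46, apart on all arrays, as 16% of all genes were. Among 18 genes of cholesterol synthesis SQLE alone passed, 12 lay below 0 with a median of -0.12, and DHCR7, the last enzyme of the pathway, stood at -0.37 (adjusted p = 0.0859). The median of the cholesterol list had been -0.14 at time 0. Of 28 ATF4 and amino acid stress genes ATF3 alone passed, and the median was 0.045. At the unadjusted threshold the death receptor list held 3 higher and 3 lower genes, and the NF-kB list 1 higher and 5 lower. The cholesterol list held 1 higher and 3 lower, and the ATF4 list 3 higher and 1 lower.

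**Figure D5:**
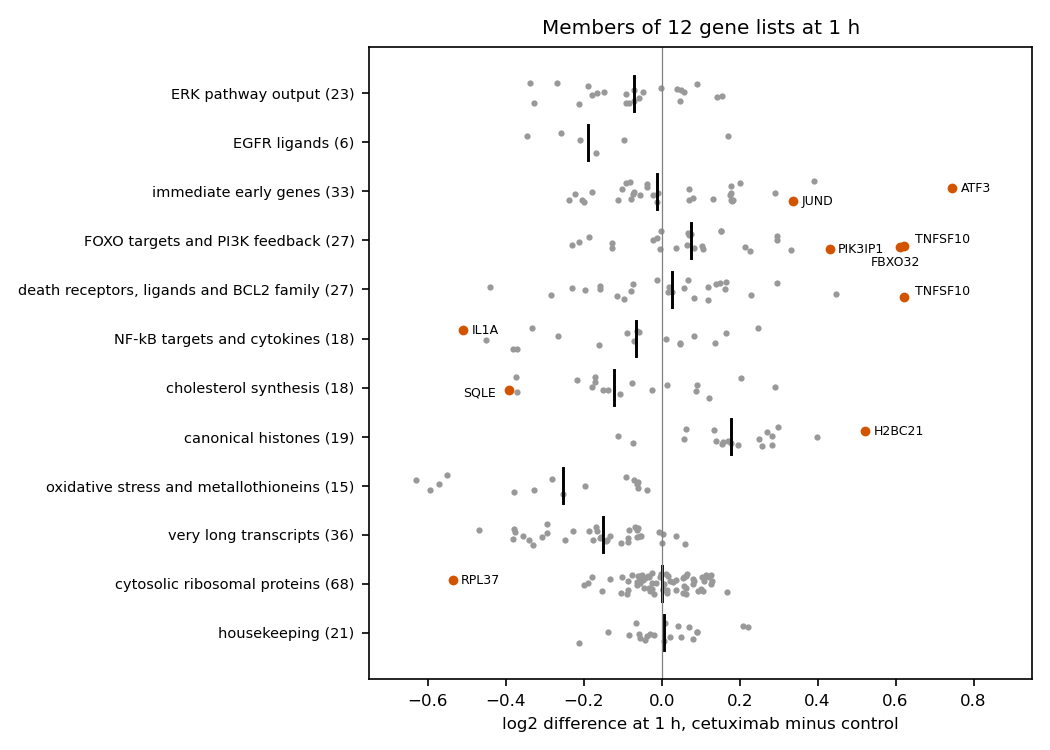
Log2 difference at 1 h (horizontal) of each measured member of 12 gene lists (rows, number of members in brackets), with members past the threshold in orange and named, and the median of each list as a black bar. Medians run from -0.25 (oxidative stress and metallothioneins) to 0.18 (canonical histones).

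Canonical histones lay mostly above 0 and very long transcripts mostly below. Over all 12735 genes tested, 653 were higher and 602 lower at an unadjusted p under 0.05 (limma), and 50.9% lay above 0. Of 19 histone genes H2BC21 alone passed, 8 were higher at an unadjusted p under 0.05, 17 lay above 0, and the median was 0.18, such as H2AC11 at 0.40 and H2AC20 at 0.28. Histone genes are near copies of each other, and a probe may bind more than 1 of them. The histone median was 0.14 at time 0, 0.065 at 30 min and 0.13 at 2 h. Of 36 genes with very long transcripts, a list kept as a check on RNA integrity, none passed (limma; 10 lower and 0 higher at an unadjusted p under 0.05) and 32 lay below 0 with a median of -0.15, such as PRKDC at -0.47, AHNAK at -0.38 and PLEC at -0.38. Their mean level was 6.34 to 6.49 on the cetuximab arrays and 6.55 to 6.68 on the controls, and the median was also below 0 at time 0 (-0.11), 30 min (-0.15) and 2 h (-0.16). The part of RNA integrity in the differences at 1 h was not tested. Of 21 housekeeping genes none passed (limma; 0 at an unadjusted p under 0.05) and the median was 0.0067.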

How the data were processed

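Total RNA of BxPC-3 cells was hybridised to Illumina HumanHT-12 v4 BeadChips, 1 array a sample. The authors deposited 1 table of log2 values for 90 arrays and 47292 probes; limma is the tool in the submitters' processing notes, and how background was corrected or arrays were normalized is not stated by the labels. The log2 base was inferred from the range, 0.26 to 13.76. Values were used as deposited, so a between-array correction could change small differences. Median centring gave 41 calls at 1 h and quantile normalization 39, which held 39 and 38 of the 39 calls made here. Precision is limited by the small number of arrays.

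Of 30096 probes with 1 gene symbol, those with a mean over all arrays of at least 4.24, the median of the probe means, were kept, and the probe with the highest mean stood for each of 12735 genes. Symbols were updated by gene ID (30057 probes matched). In R 4.3.3, lmFit and eBayes of limma 3.58.1 fitted 30 group means over all 90 arrays, with 60 residual degrees of freedom. Contrasts were cetuximab minus control at 1 h, its change against time 0, 30 min and 2 h, and 1 h minus time 0 within arms, with Benjamini-Hochberg adjustment over all genes and a threshold of 0.05. The procedure was tested on simulated data. Named genes were all genes called at 1 h, the 5 nearest the threshold, up to 3 per direction in each change between times, fixed pathway genes, and up to 4 members a list of 37 lists (812 genes). MIGA1 and MCMDC2 fall outside this rule and were chosen after their values were seen, as were further list members given as examples. Members and lists were chosen with earlier results of these data known. Alternatives were median centring, quantile normalization, other probe filters, the mean of probes, a trended robust prior, array weights, fewer arrays, the replicate number as a block and leaving out arrays.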

Additional observations from a re-analysis of the deposited data

Results flagged for a closer look

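The difference between the arms changed with time for a limited number of genes, and each value here is the 1 h difference minus the difference at the other time, with the change itself tested (limma, adjusted over all genes). Against time 0 the change passed for 133 genes. Among the genes named, it was positive for ATF3 (1.11), WEE1 (1.00), SERTAD1 (0.96), CDC42EP4 (0.94), FAM53C (0.88), HBP1 (0.66), SCHIP1 (0.57), PACSIN2 (0.47) and JUND (0.40). It was negative for FOS (-1.43), NFKBIZ (-1.27), SPRY1 (-1.21), FOXA2 (-1.07), ZNF627 (-0.89), SOX7 (-0.84), ANKRD46 (-0.70), INTS6 (-0.65), RPL37 (-0.63), CSTF3 (-0.60), BDNF (-0.52) and SCML1 (-0.50). Against 30 min it passed for 8 genes, of which ATF3 (1.05), FBXO32 (0.87), CDC42EP4 (0.68), JUND (0.67) and DHRS3 (0.63) were also called at 1 h. Against 2 h it passed for 4 genes, RASD1 (0.83), VASN (0.68), KLF6 (0.61) and ZNF20 (-0.59). ATF3, CDC42EP4 and JUND passed against both earlier times. The same 1 h arrays enter these tests and chose the genes called at 1 h, so the tests are not independent of each other or of the calls. The arms differed in 316 genes at time 0, when the antibody had only been added, and the part of this in the changes against time 0 was not tested.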

How the results depend on the processing

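All 39 genes kept their sign in every one of the 21 alternatives, while the count of calls moved. Since the 39 were picked on these same arrays, and several settings alter only the spread, the kept sign is no separate support. CSTF3 kept its sign at only -0.0049 for the mean of its probes. The 39 calls at 1 h (26 higher, 13 lower) became 61 with the stricter filter (25 lower), 112 with array weights (68 higher, 44 lower) and 0, higher or lower, from the 6 arrays of 1 h alone or the 18 arrays of 30 min to 2 h (limma; 1257 and 1358 at an unadjusted p under 0.05). When the probes of a gene were averaged 7 were lower. The share of calls that were higher, 66.7% here, was 68.3% with median centring and 66.7% with quantile normalization. Of the changes between times, the count of 8 against 30 min became 5 with median centring, 3 with no filter, 19 with the stricter filter, 15 with the trended robust prior and 64 with array weights; the 133 against time 0 became 86 with no filter and 242 with array weights; and the 4 against 2 h became 8 with array weights. Leaving out arrays gave 0 to 60 calls at 1 h (0 to 39 higher, 0 to 21 lower), 68 to 88 against time 0, 1 to 16 against 30 min and 0 to 2 against 2 h. The cause was not tested.

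Arrays of the same replicate number shared little, with an r of their deviations of 0.14, 0.11 and 0.033. Arrays of unlike number had an r from -0.17 to 0.075. The numbers were not taken to pair the arms, but a weak pairing was not tested for and may exist. With the number as an additive replicate block 41 genes were called, with a replicate block for each time and number 76 (40 higher, 36 lower), and with the block on the 6 arrays of 1 h alone 0, higher or lower (limma; 1377 unadjusted). For genes near the floor of 4.24 the signal over background limits what could be measured.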

Other observations

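The gene groups given here held no call at 1 h (limma). Over all 12735 genes tested, 653 were higher and 602 lower at an unadjusted p under 0.05, and 50.9% lay above 0. Of 26 interferon-stimulated genes 19 were above 0 with a median of 0.11 and 3 higher at an unadjusted p under 0.05, and IFI6, a mitochondrial interferon-induced protein, stood at 0.45. Of 19 clock output and glucocorticoid target genes 4 were higher at an unadjusted p under 0.05, with a median of 0.11, among them PER2, a repressor of the clock, at 0.32. Of 16 YAP/TEAD targets 11 lay below 0 with a median of -0.13 and 2 lower at an unadjusted p under 0.05. Of 25 genes of ribosome biogenesis 19 lay below 0 with a median of -0.055 and 1 higher at an unadjusted p under 0.05, and of 30 genes of mitosis 22 lay below 0 with a median of -0.049 and 3 lower. The 32 genes of oxidative phosphorylation had a median of 0.0087 with 1 higher at an unadjusted p under 0.05, and the 23 epithelial genes one of 0.0015 with 1 higher and 1 lower.

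Outside the comparison, MT1G followed MT1X, at 8.09, 8.00, 9.55 and 10.05 on control replicate 1 at time 0, 30 min, 1 h and 2 h. At 4 h ATF3 stood at 0.84 and FBXO32 at 0.77 between the arms, and at 8 h at -0.0029 and 0.62.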
